A study of Mus musculus with 4 samples.

Results

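Dipeptidyl peptidase 4 (DPPIV, also CD26) is a membrane-anchored serine protease that removes the first 2 amino acids of peptides whose second residue is proline or alanine, among them incretin hormones and chemokines. Its closest relatives are fibroblast activation protein, encoded by Fap, which also cleaves denatured collagen, and the cytosolic enzymes DPP8 and DPP9, while DPP6 and DPP10 have the same fold but no peptidase activity and serve as subunits of Kv4 potassium channels. Prolyl endopeptidase (Prep) belongs to the same clan, DPP7 is a lysosomal dipeptidyl peptidase of another serine family, and DPP3 is a zinc-dependent dipeptidyl peptidase grouped with the others by its name and substrates. In skeletal muscle, surface DPPIV separates fibro-adipogenic progenitors (FAPs), the PDGFRα+ mesenchymal cells of the interstitium, into DPPIV+ and DPPIV- cells. Below, Fap is the gene and FAPs are the cells.

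The genes followed were Dpp4, Fap, Dpp8, Dpp9, Dpp6, Dpp10, Prep, Dpp7 and Dpp3, chosen by symbol as the gene of the sorted surface marker and its enzyme relatives, so they were 9 of the 24421 genes counted. Reads were counted in 4 bulk RNA-seq libraries, of DPPIV- FAPs and of DPPIV+ FAPs from each of 2 wild-type mice. Both populations were sorted as viable (PI-), CD31- CD45- Sca1+ cells and differed only in the DPPIV gate. All animals had been given a CSF1R inhibitor for 3 weeks, which removes macrophages that need this receptor, and had then been back on a regular diet for 3 days, so untreated FAPs were not part of the comparison. The labels give tibialis anterior as the source, whereas the dissection protocol describes muscle of both hindlimbs. The study used adult mice of both sexes. The age and sex of these 2 animals were not given in the sources used here. Each library held 18240110 to 20879405 reads, and 3 reads, taken as the smallest count read as detection, correspond to 0.143 to 0.167 CPM (counts scaled to a library of 1000000 reads).

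Of the FAP markers Pdgfra, Ly6a, Dcn, Lum, Col1a1 and Cd34, every library held at least 18826 reads of each. In DPPIV+ FAPs, Ly6a and Cd34 were higher (0.58 and 0.52 on the log2 scale) and Pdgfra, Dcn, Lum and Col1a1 were lower (-0.38, -0.28, -0.85 and -0.40). The 8 markers of DPPIV+ FAPs (Pi16, Ly6a, Cd55, Wnt2, Sema3c, Ly6c1, Dact2 and Has1) were all higher in DPPIV+ FAPs, by 0.58 to 3.18 on the log2 scale. Of all genes tested, 15.9% were higher and 17.2% lower. The list was chosen with earlier results of these data known, so its count is a description and no check of the sort. Summed over 9 haematopoietic markers, DPPIV- FAPs had 285 CPM in mouse 1 and 163 CPM in mouse 2, and DPPIV+ FAPs 173 and 158 CPM. Lyz2 made up most of these sums, at 220 and 125 CPM against 131 and 121 CPM. Of the 5 tested, 3 (Lyz2, Csf1r and Adgre1) were lower in DPPIV+ FAPs and 0 higher. DESeq2 made none of these calls. The T cell gene Cd3d was at 0 in all 4 libraries, and Cd3e, Cd79a and Flt3 had 0 to 3 reads. Blood endothelial markers summed to 242 and 182 CPM in DPPIV- FAPs and 502 and 457 CPM in DPPIV+ FAPs. Of the 5, Tek was higher in DPPIV+ FAPs and 3 were lower. Tek made up most of these sums, with 187 and 149 CPM in DPPIV- FAPs and 467 and 427 CPM in DPPIV+ FAPs. Of 6 mural markers, 5 were lower in DPPIV+ FAPs, with sums of 121 and 123 CPM against 51.2 and 63.5 CPM, although Kcnj8 reached the filter through the DPPIV- libraries alone. Of 4 tenocyte markers, 3 were higher, although Scx reached the filter through the DPPIV+ libraries alone, and Thbs4 was lower (-0.20 on the log2 scale). The 4 summed to 1631 and 2132 CPM against 1213 and 2322 CPM. Thbs4 made up most of this, with 1602 and 2096 CPM in DPPIV- FAPs and 1153 and 2217 CPM in DPPIV+ FAPs. The sums therefore say little about the 3 that were higher. The part of such cells in the differences below was not tested.

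Dpp4 and Fap are neighbours on chromosome 2. In the mm10 (GRCm38) annotation, Dpp4 lies at chr2:62330073-62412231 and Fap at chr2:62500943-62574075, both on the minus strand and 88712 bases apart, with Gcg, the gene of the DPPIV substrate GLP-1, between them at chr2:62474530-62483650. The other genes are dispersed: Dpp7 at chr2:25352276-25356359 (minus), Dpp10 at chr1:123321471-124045559 (minus), Dpp6 at chr5:26817203-27727505 (plus), Dpp8 at chr9:65032414-65082651 (plus), Prep at chr10:45067203-45167198 (plus), Dpp9 at chr17:56186807-56218905 (minus) and Dpp3 at chr19:4907229-4928287 (minus). All 9 are protein-coding, with 6 to 33 blocks of exon sequence. The exons of Dpp4 share 232 bases, and those of Dpp8 316 bases, with an antisense transcript that was not in the count table.

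RefSeq promoter windows of 300 bases, 250 before the start site and 50 from it on (GRCm38.p6), were found for 7 of the 9 symbols. They are shown for Dpp4, the gene with the largest difference between the sorted populations, and for Dpp8, a close relative with similar levels in both, each read 5′ to 3′ along its gene, from chr2:62412182-62412481 (minus strand) and chr9:65032208-65032507 (plus strand). Capitals mark matches on either strand to 3 core promoter motifs, which do not overlap in these windows: the TATA box as TATAAA, the CAAT box with the letters CCAAT, and the GC box with the letters GGGCGG.
Dpp4: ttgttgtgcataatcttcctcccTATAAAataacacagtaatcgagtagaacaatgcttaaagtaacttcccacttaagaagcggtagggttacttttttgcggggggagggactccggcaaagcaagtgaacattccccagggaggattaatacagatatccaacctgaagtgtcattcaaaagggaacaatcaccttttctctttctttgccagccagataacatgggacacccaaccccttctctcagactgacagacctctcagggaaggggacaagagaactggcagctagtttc
Dpp8: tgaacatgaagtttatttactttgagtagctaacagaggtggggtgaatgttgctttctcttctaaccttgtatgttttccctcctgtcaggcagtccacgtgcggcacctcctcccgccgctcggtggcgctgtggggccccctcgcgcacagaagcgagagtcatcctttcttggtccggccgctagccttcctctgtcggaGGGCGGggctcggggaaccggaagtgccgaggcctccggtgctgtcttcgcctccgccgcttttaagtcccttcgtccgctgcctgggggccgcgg
The Dpp4 window held 1 TATAAA, starting at -227 from the start site, a motif found in 13.6% of 32851 mouse promoter windows of this length. It held neither CCAAT, found in 37.4% of windows, nor GGGCGG, found in 35.7%. The Dpp8 window held 1 GGGCGG at -46. Guanine and cytosine made up 45.3% of the Dpp4 window, which had 4 CpG dinucleotides, against 61.3% and 24 CpG for Dpp8 and a median of 52.7% and 7 CpG over all windows. The windows of the other members with an entry had a GC content of 53.7 to 65%, so that of Dpp4 was the lowest of the 10 member windows.

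In DPPIV- FAPs, Dpp4 was read 1879 times in mouse 1 and 776 times in mouse 2, and in DPPIV+ FAPs 13106 and 10476 times, which is 64.7 ± 35.4 CPM against 651 ± 108 CPM (mean ± SD, n = 2 mice). Each DPPIV+ library lay far above both DPPIV- libraries. This is the transcript of the protein that was sorted on, so the difference checks the sort and is not a finding about it. The ratio of DPPIV+ to DPPIV- was 8.11-fold in mouse 1 and 14.5-fold in mouse 2. The paired fit gave a log2 fold change of 3.41 ± 0.08 (SE), or 10.7-fold (95% interval 9.61 to 11.8). Both mice lay outside this interval, which rests on a spread fitted over all genes by abundance, not on that of Dpp4 between the mice. Dpp4 ranked 28 among the log2 fold changes of 11588 genes tested. Its log10 adjusted p was -399.7 in edgeR's quasi-likelihood test, which used that fitted spread. DESeq2's Wald test gave an adjusted p of 8.75e-16 and the fit without the mouse term 0.000557. With robust moderation, which let Dpp4 keep its own spread between the mice, edgeR's adjusted p was 0.178, the highest over the alternatives tried.

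The transcript was not absent from DPPIV- FAPs. Their Dpp4 level was 12.3% of that in DPPIV+ FAPs in mouse 1 and 6.90% in mouse 2. In these bulk libraries, fewer cells that transcribe a gene and less RNA of it per cell cannot be told apart. DPPIV is also carried by T cells and some dendritic cells. Itgax, the CD11c gene of dendritic cells, had 223 and 66 reads in DPPIV- FAPs and 109 and 91 in DPPIV+ FAPs, and the part of such cells in the Dpp4 reads was not tested.

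**Figure D1:**
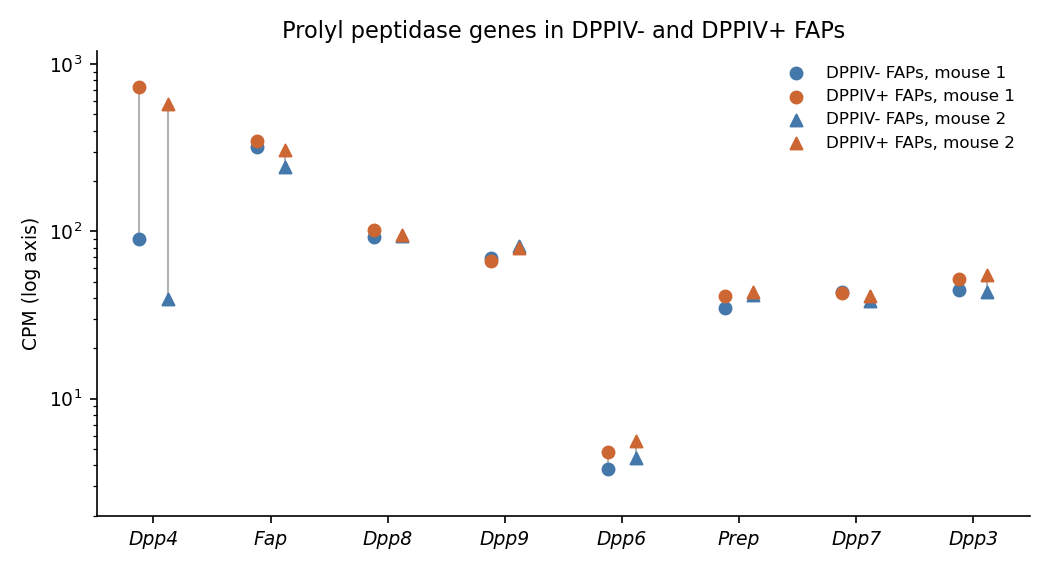
Level of 8 peptidase genes (CPM, log axis) in each library, with circles for mouse 1, triangles for mouse 2, blue for DPPIV- and orange for DPPIV+ FAPs, and a line joining the libraries of a mouse. Dpp4 goes from 89.8 and 39.7 CPM in DPPIV- FAPs to 728 and 575 CPM in DPPIV+ FAPs, and no other gene shows a gap of that size. Dpp10, with no reads, is left out.

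Of the 9 genes, 8 passed the filter of 2 CPM in at least 2 libraries, and each of the 8 reached 2 CPM in all 4 libraries. Dpp4, Dpp3 and Fap were higher in DPPIV+ FAPs and none was lower, beside 15.9% of all genes tested that were higher, 17.2% that were lower and 33.0% called in either direction. Without Dpp4, 2 of 7 were called. The median log2 fold change of the 7 was 0.16, beside -0.0020 for all genes tested. Apart from Dpp4, no member passed a test against a 1.5-fold change.

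Fap is a marker of activated fibroblasts. In DPPIV- FAPs it was read 6724 times in mouse 1 and 4716 times in mouse 2, and in DPPIV+ FAPs 6204 and 5599 times, or 281 ± 56.7 against 326 ± 26.4 CPM (SD, n = 2). The groups overlapped, with DPPIV- FAPs of mouse 1 at 321 CPM above DPPIV+ FAPs of mouse 2 at 307 CPM. Within each mouse DPPIV+ was the higher, by 1.07-fold in mouse 1 and 1.27-fold in mouse 2. The paired log2 fold change was 0.22 ± 0.07 (SE), with an adjusted p of 0.00381 by edgeR. This call ended with DESeq2 (adjusted p = 0.127) and without the mouse term (adjusted p = 0.388).

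Dpp3, whose product cleaves angiotensin and enkephalin peptides and binds KEAP1, had 931 and 847 reads in DPPIV- FAPs and 938 and 1001 reads in DPPIV+ FAPs. In CPM, DPPIV- FAPs were at 44.5 and 43.3 and DPPIV+ FAPs at 52.1 and 54.9, so the groups did not overlap. With 2 libraries per group, a lack of overlap says little alone, and its share over all genes was not counted. The fold was 1.17 in mouse 1 and 1.27 in mouse 2, and the log2 fold change 0.29 ± 0.07 (SE), with an adjusted p of 0.000547 by edgeR. DESeq2 gave an adjusted p of 0.193, which ended this call too, while the fit without the mouse term gave 0.0446. By the test that the study's own methods name, DESeq2's, Dpp4 was therefore the 1 member called.

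The cytosolic relatives Dpp8 and Dpp9, which restrain the NLRP1 inflammasome, were not called. Dpp8 had 1934 and 1846 reads in DPPIV- FAPs and 1823 and 1736 in DPPIV+ FAPs, with a fold change of 1.05 (95% interval 0.962 to 1.15) and an adjusted p of 0.451. Its groups did not overlap in CPM either, at 92.4 and 94.4 in DPPIV- FAPs and 101 and 95.2 in DPPIV+ FAPs. Dpp9 had 1451 and 1590 reads in DPPIV- FAPs and 1204 and 1445 in DPPIV+ FAPs, with a fold change of 0.970 (95% interval 0.886 to 1.06) and an adjusted p of 0.685. For this pair the intervals reach a difference of 1.15-fold at most. They come from the fit's standard errors, which use a spread fitted over all genes by abundance. Nor are they adjusted for the number of genes. They are therefore no firm bound over these 2 mice.

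Prep, an endopeptidase of short peptides, had 726 and 813 reads in DPPIV- FAPs and 744 and 795 in DPPIV+ FAPs. Its fold change of 1.12 (95% interval 1.00 to 1.24) had an adjusted p of 0.115. Dpp7 had 905 and 749 reads in DPPIV- FAPs and 773 and 750 in DPPIV+ FAPs, a fold change of 1.03 (95% interval 0.928 to 1.15) with an adjusted p of 0.727. Dpp7 levels differed in direction between the mice, at -0.01 and 0.10 on the log2 scale.

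The Kv4 subunit genes were the least abundant. Dpp6 had 80 and 87 reads in DPPIV- FAPs and 87 and 102 in DPPIV+ FAPs, 4.14 ± 0.442 against 5.21 ± 0.540 CPM (SD, n = 2). The CPM of the groups did not overlap and the log2 difference was 0.34 in mouse 1 and 0.33 in mouse 2, but the fold change of 1.26 (95% interval 0.939 to 1.69) did not pass, with an adjusted p of 0.258. Dpp10 had 0 reads in all 4 libraries, which allows up to 0.143 to 0.167 CPM per library, for counting error only, and it was not tested.

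**Figure D2:**
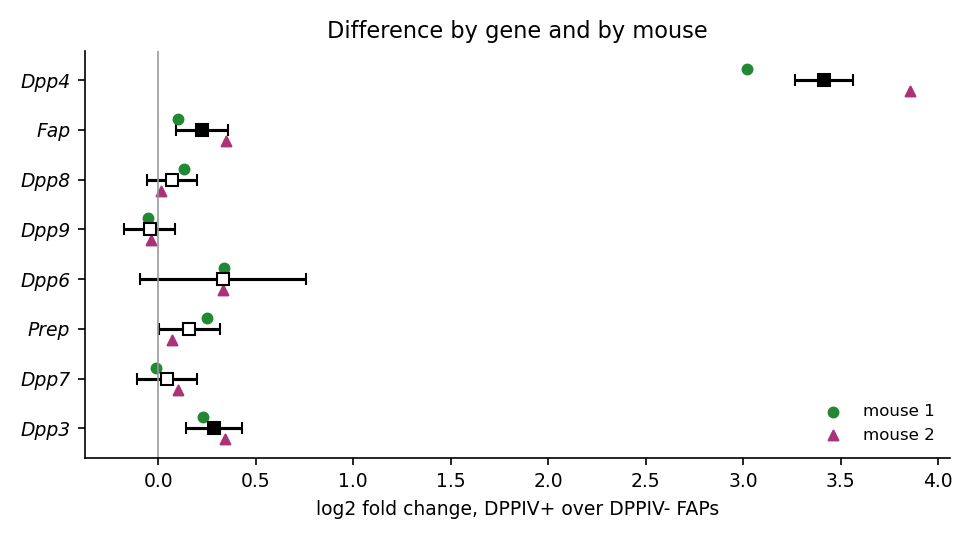
Log2 fold change of DPPIV+ over DPPIV- FAPs for the 8 genes tested, with squares and bars for the paired fit and its 95% interval (filled where the adjusted p was under 0.05), circles for mouse 1 and triangles for mouse 2. Dpp4 stands at 3.41, with its mice at 3.02 and 3.86, and the other 7 genes lie between -0.04 and 0.33.

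Per kilobase of exon, which allows levels of different genes to be compared, the order of the family changed at its top. In DPPIV- FAPs, Fap was the highest at 49.7 ± 10.0 CPM per kilobase (SD, n = 2), above Dpp7 at 12.2 ± 1.05 and Dpp4 at 10.2 ± 5.61, and both Fap libraries lay above all libraries of the other genes. The DPPIV- libraries of Dpp4, at 14.2 and 6.28 CPM per kilobase, spanned those of Dpp7, Dpp9 and Dpp8, so its place among them was not resolved. Per kilobase of the longest coding transcript, Dpp4, at 17.0 and 7.53, lay below every DPPIV- library of Dpp7, Dpp9 and Dpp8. By that length, Dpp7 at 25.7 and 22.8 overlapped Dpp9 at 20.6 and 24.1. By the union of exons, Dpp7 was followed by Dpp9 at 9.55 ± 1.07, Dpp8 at 6.81 ± 0.101 and Dpp3 at 5.66 ± 0.108. Then came Prep at 3.49 ± 0.444 and Dpp6 at 0.335 ± 0.0358, and each pair of neighbours from Dpp7 on was without overlap.

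In DPPIV+ FAPs, Dpp4 came first at 103 ± 17.1 CPM per kilobase, with libraries at 115 and 91.0, above Fap at 57.6 ± 4.67, with libraries at 60.9 and 54.3. Dpp7 followed at 12.6 ± 0.378, then Dpp9 at 9.27 ± 1.11, Dpp8 at 7.17 ± 0.310, Dpp3 at 6.90 ± 0.257, Prep at 3.88 ± 0.148 and Dpp6 at 0.422 ± 0.0438. Dpp8 and Dpp3 overlapped here, and the other neighbours did not. The lead of Dpp4 over Fap depended on the length used. Per kilobase of the longest coding transcript, DPPIV+ FAPs of mouse 2 had 109 for Dpp4 and 112 for Fap, and those of mouse 1 had 138 and 125. By that length, Dpp9 at 19.8 and 23.5 also overlapped Dpp8 at 21.1 and 19.8.

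Among the summed levels per kilobase of Dpp4, Fap, Dpp8 and Dpp9, Dpp4 made up 13.0 ± 4.90% in DPPIV- FAPs and 58.0 ± 2.79% in DPPIV+ FAPs, and Fap 65.0 ± 0.810% and 32.6 ± 1.23% (SD, n = 2). The sum itself was 86.5 and 66.1 CPM per kilobase in the DPPIV- libraries of mouse 1 and mouse 2, and 192 and 162 in the DPPIV+ libraries. With the longest coding transcript as length, the share of Dpp4 was 7.62 ± 3.11% and 43.4 ± 2.89%. Dpp4 is the gene of the sorted marker, and these are shares of transcripts, not of enzyme activity.

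**Figure D3:**
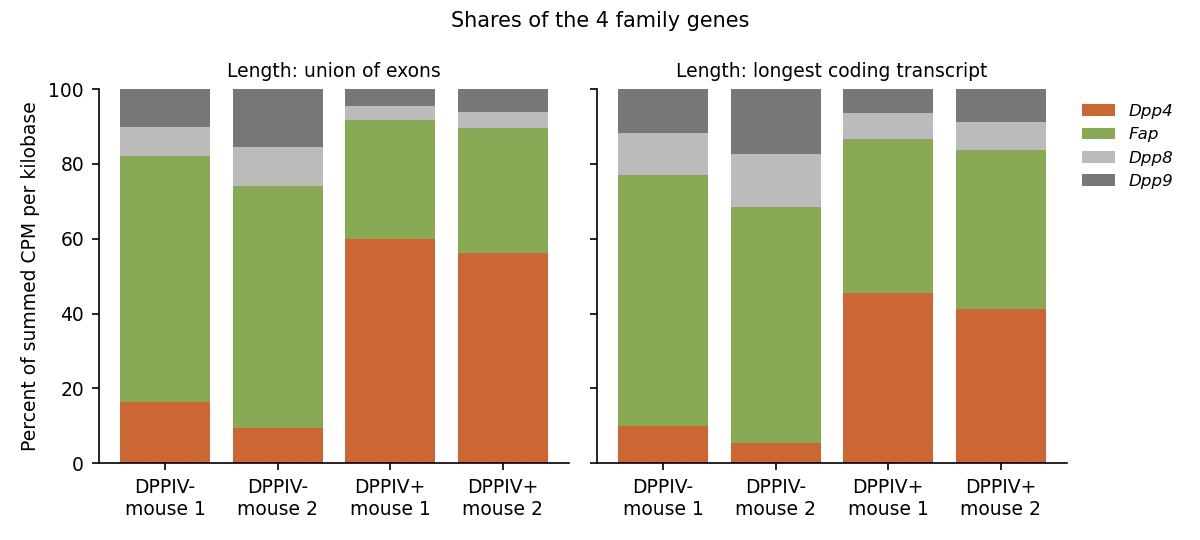
Shares of Dpp4, Fap, Dpp8 and Dpp9 in their summed CPM per kilobase, in percent, for each of the 4 libraries, with the union of exons (left) or the longest coding transcript (right) as length. Dpp4 takes 16.4 and 9.50% in DPPIV- FAPs and 60.0 and 56.1% in DPPIV+ FAPs by exon union.

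The mice differed in Dpp4 as well. In DPPIV- FAPs, mouse 1 had 2.26 times the Dpp4 level of mouse 2, and 63 of the 11588 genes tested (0.544%) differed more between the mice in those cells. In DPPIV+ FAPs the ratio was 1.27. The mouse term of the fit, mouse 2 over mouse 1, was -0.71 ± 0.07 (SE) on the log2 scale for Dpp4 (adjusted p = 2.63e-20 by edgeR). It was -0.29 ± 0.07 for Fap (adjusted p = 0.000585) and 0.24 ± 0.07 for Dpp9 (adjusted p = 0.00707), beside 8.98% of all genes called. The other 5 genes tested were not called for it, and DESeq2 called none of the 8. Whether the Dpp4 fold itself differed between the mice could not be tested with 1 library per population and mouse.

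Other genes moved with Dpp4 between the mice. In DPPIV- FAPs, the summed haematopoietic markers were at 285 CPM in mouse 1 and 163 in mouse 2, and the blood endothelial markers at 242 and 182. Lyz2 made up 220 and 125 CPM of the haematopoietic sums, and Tek 187 and 149 CPM of the endothelial ones. Of the DPPIV+ FAP markers, Dact2 had 647 and 333 reads, Wnt2 158 and 94, and Pi16 17865 and 13871 in the DPPIV- libraries of mouse 1 and mouse 2, while Has1, at 2616 and 3616, went the other way. The 8 summed to 2880 and 2640 CPM. The part of any of these in the Dpp4 difference was not tested.

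**Figure D4:**
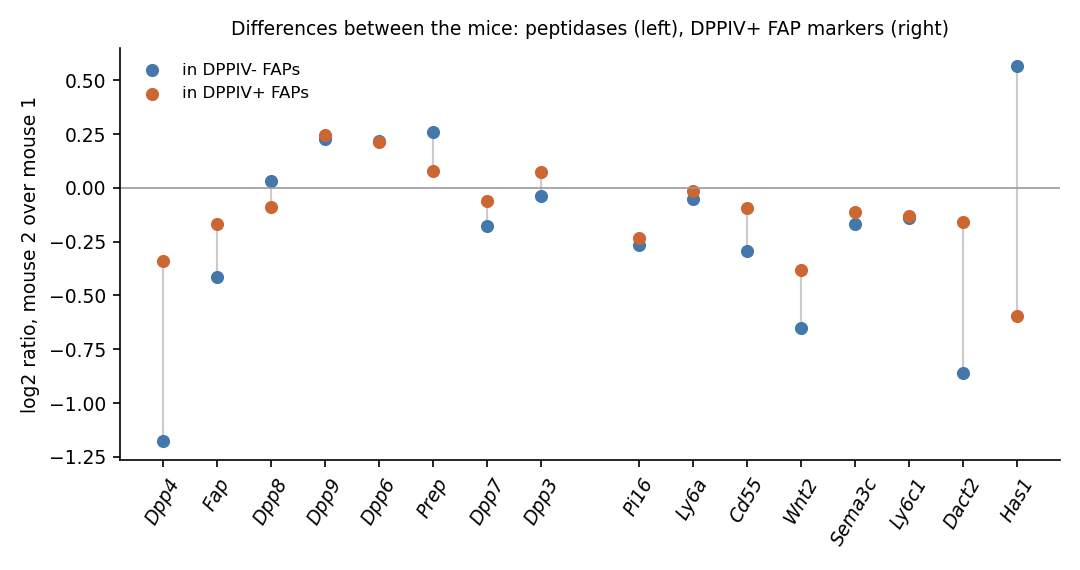
Log2 ratio of mouse 2 over mouse 1 in DPPIV- FAPs (blue) and DPPIV+ FAPs (orange) for the 8 peptidase genes tested (left) and the 8 DPPIV+ FAP markers (right). Dpp4 lies at -1.18 in DPPIV- FAPs and -0.34 in DPPIV+ FAPs. Dact2 has a similar gap, at -0.86 and -0.16, while Dpp9 is at 0.23 and 0.25.

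The genes whose profile over the 4 libraries was nearest to that of Dpp4, by the root mean square difference of log2 CPM centred on each gene's mean, were Prkg2 (0.13), Itgb7 (0.16), Mmp27 (0.16), Dact2 (0.17) and Tmem28 (0.19). Itgb7, an integrin chain, had 134 and 55 reads in DPPIV- FAPs and 1142 and 942 in DPPIV+ FAPs. Prkg2, a cGMP-dependent kinase, had 57 and 30 reads against 477 and 361. Mmp27, a matrix metalloproteinase, had 51 and 17 against 328 and 212. Tmem28 had 12 and 4 against 58 and 59, and reached the filter through the DPPIV+ libraries alone. Each of the 5 had more reads in mouse 1 than in mouse 2 in DPPIV- FAPs, as Dpp4 did, which their choice by likeness favoured. With 4 libraries such likeness is a description, since any gene with a similar fold and the same split between the mice comes near.

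For Fap, the nearest profiles were those of Enpep (0.02), Neu3 (0.02), Hoxa10 (0.03), Cox7a2l (0.03) and Rab9 (0.03). Enpep, the glutamyl aminopeptidase that trims angiotensin, had 2147 and 1539 reads in DPPIV- FAPs and 1957 and 1783 in DPPIV+ FAPs, near the proportions of Fap. These genes varied little over the libraries, and small root mean square differences follow from that.

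Along chromosome 2, neither gene next to Dpp4 had a difference of comparable size in reads, though the fold of Slc4a10 was similar. Gcg, the next gene towards Fap, had 0 to 2 reads per library. On the other side, Slc4a10, a bicarbonate transporter gene on the plus strand whose annotated end lies 3343 bases from Dpp4, had 3 and 2 reads in DPPIV- FAPs and 26 and 23 in DPPIV+ FAPs, under the filter and so untested. Its ratio of DPPIV+ to DPPIV- was 9.72-fold in mouse 1 and 11.7-fold in mouse 2, near that of Dpp4 but at few reads. The strand setting of the counting was not given in the sources used here.

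Beyond Fap, Ifih1, a sensor of viral RNA, had a log2 fold change of 0.23 ± 0.07 (adjusted p = 0.00263 by edgeR), which DESeq2 did not call (adjusted p = 0.276). Gca, a calcium-binding protein gene, had 23 and 12 reads in DPPIV- FAPs and 43 and 38 in DPPIV+ FAPs, and a log2 fold change of 1.38 ± 0.32 (adjusted p = 0.000109). DESeq2 did not call it either (adjusted p = 0.155), and it reached the filter through the DPPIV+ libraries alone. Fign, the next gene tested beyond Gca, stood at -0.55 ± 0.24 (adjusted p = 0.0618), and Kcnh7 and Grb14 had 0 and 10 to 26 reads. On the Dpp4 side, past Slc4a10, Psmd14 and Tank stood at 0.05 and -0.01 and were not called, and Tbr1 and Gm13582 had 0 or 1 read.

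Substrates, receptors and partners of these enzymes were read as 10 lists of 81 genes, of which 49 passed the filter. Among the 49, 12 were higher and 18 lower in DPPIV+ FAPs, with a median log2 fold change of -0.07 beside -0.0020 for all genes tested, and with the same background of 15.9% higher and 17.2% lower. Among the 18, Npy1r, Kcnd3, Kcnip3 and Agtr2 reached the filter through the DPPIV- libraries alone, so for these a difference was bound to be seen.

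Chemokines that DPPIV truncates were lower or not called. CXCL12, which draws CXCR4+ cells, loses activity after cleavage by DPPIV. Cxcl12 had 11184 and 10317 reads in DPPIV- FAPs and 4614 and 4813 in DPPIV+ FAPs, 531 ± 4.95 against 260 ± 5.51 CPM (SD, n = 2). That is 2.04-fold lower in the population with high Dpp4, at a log2 fold change of -1.03 ± 0.07 (adjusted p = 1.70e-48 by edgeR), and the groups were well apart. Of 10 listed chemokines and cytokines, 4 were tested and 3 were lower, beside 17.2% of all genes tested. Besides Cxcl12 these were Cxcl9 at -0.62 ± 0.11 and Ccl11, an eosinophil chemokine gene, at -0.25 ± 0.07. The call of Ccl11 ended without the mouse term (adjusted p = 0.183). Cxcl10 stood at 0.14 ± 0.10 (adjusted p = 0.303). The remaining 6 (Ccl5, Ccl22, Cxcl11, Csf2, Il3 and Epo) had 0 to 13 reads.

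The peptide hormones that DPPIV cleaves were hardly read. Gip, Pyy and Adcyap1 had 0 reads in all libraries, Gcg 0 to 2 and Npy 0 to 3. Tac1, the gene of substance P, had 27 and 20 reads in DPPIV- FAPs and 24 and 17 in DPPIV+ FAPs, so 0 of 6 were tested.

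Among 13 receptors for DPPIV substrates, 3 were tested. Ackr3, the atypical receptor that takes up CXCL12, had 8975 and 9554 reads in DPPIV- FAPs and 21486 and 25321 in DPPIV+ FAPs, so it was 2.81-fold higher where Cxcl12 was lower (log2 fold change 1.49 ± 0.07, adjusted p = 4.06e-92 by edgeR). Npy1r, a neuropeptide Y receptor gene, was lower at -1.28 ± 0.30, with 53 and 61 reads against 18 and 24, a call that DESeq2 did not make (adjusted p = 0.135). Cxcr4 had 151 and 53 reads in DPPIV- FAPs and 59 and 68 in DPPIV+ FAPs, and was not called (adjusted p = 0.150). Its high library, DPPIV- FAPs of mouse 1, was also the one with the most haematopoietic reads.

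Of the substrates of the FAP protease, the type I collagen genes were lower in DPPIV+ FAPs, Col1a1 at -0.40 ± 0.09 (adjusted p = 2.39e-05) and Col1a2 at -0.22 ± 0.09 (adjusted p = 0.0356, and 0.193 without the mouse term). Col3a1 stood at -0.16 ± 0.09 and was not called. Fgf21 and Serpinf2, genes of circulating substrates, had 0 to 4 reads.

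Of 8 genes of proteins that bind or inhibit DPPIV or FAP, 7 were tested, with 2 higher and 4 lower. The shares over all genes tested were 15.9% and 17.2%. Fn1, the fibronectin gene, had 135661 and 122913 reads in DPPIV- FAPs and 291360 and 288961 in DPPIV+ FAPs, a 2.51-fold difference at a log2 fold change of 1.33 ± 0.09. Ada, whose product adenosine deaminase docks on human DPPIV at the cell surface, was lower at -1.08 ± 0.18, with 183 and 218 reads against 82 and 88. Gpc3, the glypican that inhibits DPPIV, was lower at -0.65 ± 0.07 and Cav1 at -0.67 ± 0.07. Igf2r was lower at -0.26 ± 0.07 and Plaur, the urokinase receptor gene, higher at 0.38 ± 0.13, and neither passed without the mouse term (adjusted p = 0.133 and 0.0661). Itgb1 was not called.

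The Kv4 genes were few. Kcnip3 was lower at -2.61 ± 0.27, with 137 and 129 reads in DPPIV- FAPs and 15 and 24 in DPPIV+ FAPs, and the channel gene Kcnd3 at -1.80 ± 0.33, with 49 and 60 against 11 and 17. Kcnd1, at 270 and 210 against 213 and 233 reads, was not called. Of the inflammasome genes under DPP8 and DPP9, Casp1, Pycard and Gsdmd were tested and none was called, while Nlrp1a and Nlrp1b had 1 to 11 reads.

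Of 8 genes of the KEAP1-NRF2 pathway, which DPP3 enters by binding KEAP1, Nfe2l2 (0.40 ± 0.07, adjusted p = 1.41e-08) and Hmox1 (0.32 ± 0.07, adjusted p = 1.06e-05) were higher, and Keap1, Nqo1, Gclc, Gclm, Txnrd1 and Srxn1 were not called. Hmox1 lost its call without the mouse term (adjusted p = 0.409). It also differed between the mice, with 1958 and 1225 reads in DPPIV- FAPs and 2045 and 1460 in DPPIV+ FAPs.

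All 8 tested genes of angiotensin and enkephalin handling, peptides on which DPP3 acts, were called, 4 in each direction. Of all genes tested, 33.0% were called in either direction. The list was chosen with earlier results of these data known, so its count is a description. Ace, the angiotensin-converting enzyme gene, had 53316 and 42060 reads in DPPIV- FAPs and 72617 and 69245 in DPPIV+ FAPs (0.74 ± 0.08), and its receptor partner in the pathway, Agtr1a, was higher at 0.63 ± 0.07. Penk, the enkephalin precursor gene, had 4172 and 3533 reads in DPPIV- FAPs and 1505 and 1377 in DPPIV+ FAPs (-1.26 ± 0.07). Mme, the gene of the enkephalin-degrading enzyme neprilysin, was lower at -0.71 ± 0.07 and Agt, the angiotensinogen gene, at -1.04 ± 0.16. Enpep (0.20 ± 0.07) and Anpep (0.17 ± 0.07) were higher and Agtr2 (-0.87 ± 0.31) lower. These last 3 calls ended both with DESeq2 and without the mouse term. Agtr2 also reached the filter through the DPPIV- libraries alone, so that a difference was bound to be seen.

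Of 10 other proline-directed or dipeptidyl peptidase genes, 3 were higher and 2 lower, beside 15.9% and 17.2% of all genes tested. Xpnpep2, a membrane aminopeptidase P, had 645 and 473 reads in DPPIV- FAPs and 776 and 673 in DPPIV+ FAPs (0.54 ± 0.09). Prcp, the lysosomal relative of Dpp7, was at 0.43 ± 0.09, a call that DESeq2 did not make (adjusted p = 0.0628), and Tpp1 at 0.35 ± 0.07. Ctsc, the gene of the lysosomal dipeptidyl peptidase cathepsin C, was lower at -1.21 ± 0.10, with 793 and 638 reads against 258 and 295. Xpnpep1 was lower at -0.19 ± 0.07 (adjusted p = 0.0287), with no call by DESeq2 (adjusted p = 0.539) or without the mouse term (adjusted p = 0.224). Ctsc is also abundant in myeloid cells, whose part in this difference was not tested.

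**Figure D5:**
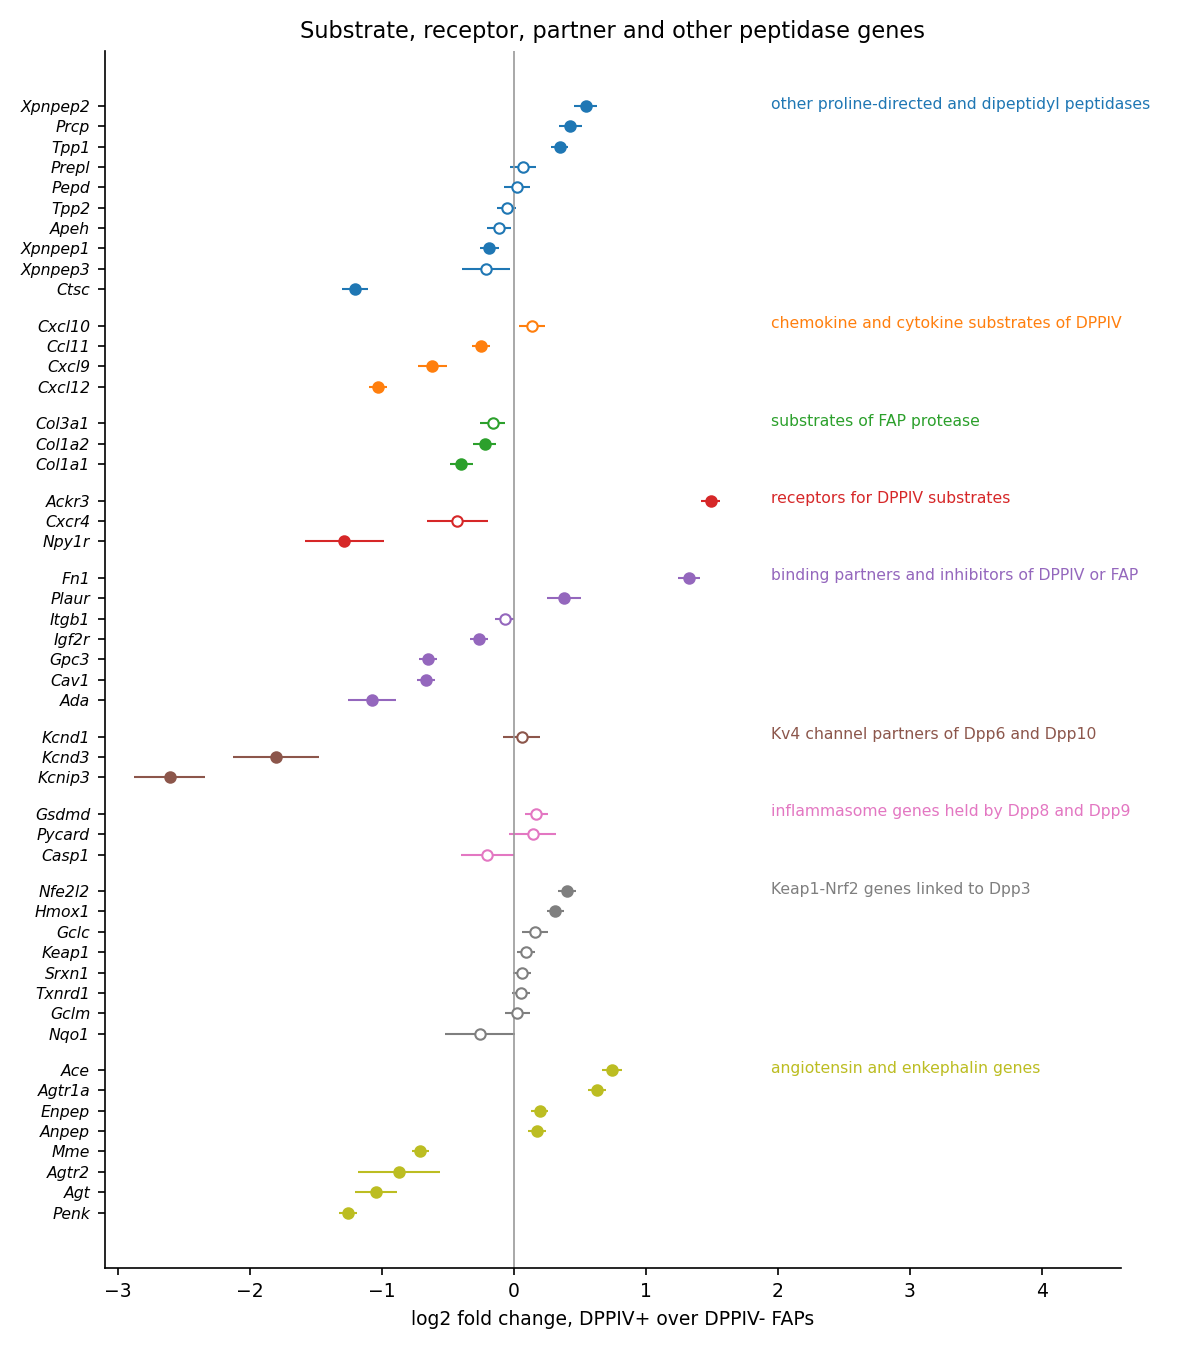
Log2 fold change of DPPIV+ over DPPIV- FAPs, with bars of 1 standard error, for the 49 related genes tested, grouped by role and filled where the adjusted p was under 0.05. Ackr3 at 1.49 and Fn1 at 1.33 lie farthest to the right, and Kcnip3 at -2.61 and Kcnd3 at -1.80 farthest to the left.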

How the data were processed

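The deposited table holds raw read counts per gene symbol for 4 libraries. Per the study's methods and the labels, the authors used bcl2fastq2 2.20 for demultiplexing, STAR for alignment to mm10 and RnaReadCounter for the counts per gene. The annotation release and strand setting are not given in the sources used here, and the labels and the methods name different stranded mRNA kits. Depth was 18240110 to 20879405 counts per library. The replicates are 2 mice. In the main edgeR fit, each p rests on a spread fitted over all genes by abundance, not on the gene's own spread between mice.

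The 11588 genes that reached 2 CPM in 2 or more libraries were tested with edgeR 4.0.16 (R 4.3.3), using TMM factors, the quasi-likelihood F test, the mouse as a block and Benjamini-Hochberg adjustment, with calls at an adjusted p under 0.05. Prior degrees of freedom were infinite, so every gene was given the quasi-dispersion fitted for genes of its abundance. The standard errors and intervals of this fit rest on it too. The numbers pair the libraries because each mouse gave both populations. The mouse 2 minus mouse 1 differences of the populations correlated at 0.415 across genes. CPM used TMM factors. Ratios within a mouse used a prior count of 0.125. Alternatives were DESeq2 1.42.0, no block, other size factors, other filters, robust moderation, a likelihood ratio test and stricter thresholds. Counts were also simulated for the comparison of DPPIV+ with DPPIV- FAPs. On these, the edgeR test called 99 of 100 genes changed by 1 on the log2 scale. It called 74 of 99 changed by 0.5 and 3 of 11258 unchanged genes, and DESeq2 called 82, 31 and 0. The simulated counts had no difference between the mice, and genes of equal abundance shared the same spread. They leave out genes with a spread of their own, so they do not give the error rate of the calls made here.

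Positions came from GENCODE M21 (GRCm38), with 95.5% of symbols matched to a single gene, and lengths from the union of its exons. Promoters came from RefSeq (GRCm38.p6). Genes named are the 9 members, the called genes and the most abundant ones of the listed gene groups, the 5 annotated neighbours on each side of Dpp4 and Fap, the 5 nearest profiles and cell type markers. Itgax, Slc4a10 and untested list members are given as reads. The members and lists were chosen with earlier results of these data known, so their counts are descriptions. A single marker of the haematopoietic list is not reported here and was left out of its sum.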

Additional observations from a re-analysis of the deposited data

How the results depend on the processing

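Of the 3 members higher in DPPIV+ FAPs, DESeq2 called 1 and the test against a 1.5-fold change 1 (Dpp4 in each case). Under the other 8 settings of the fit, 2 or 3 were called. Robust moderation kept Fap and Dpp3 and not Dpp4. Without Dpp4 among the members, a choice added after seeing the data, the count was 2. No setting called a member lower. Without the replicate block, that is with the pairing by mouse left out, 2 members were higher, and of the related genes 8 were higher and 13 lower, against 12 and 18 with it. The related genes higher or lower by more than 1.5-fold were 2 and 8. The members that differed between the mice went from 3 to 0 with DESeq2 and to 0 at 1.5-fold, alternatives added after seeing the data. The Dpp4 share of the summed family level in DPPIV+ FAPs moved from 58.0 to 43.4% with the longest coding transcript as length, which is shorter than the exon union by a different factor for each gene. Without replicate 1 or without replicate 2, the log2 fold change of Kdr was 0.10 or -0.95 and the log2 fold change of Thbs4 was 0.081 or -0.47, so that the sign of each turned without mouse 1, and so did that of Dpp7, not called, without mouse 2 (0.10 or -0.01). The other 7 members tested kept their sign. With a single mouse there are no residual degrees of freedom and so no test. Among all genes tested, DESeq2 called 923 higher and 995 lower, the fit without the block 1001 and 1119, and the 1.5-fold test 436 and 656, against 1837 and 1989. For the calls lost, the cause was not tested. Upper-quartile factors shifted the median log2 fold change by -0.04 and gave 1489 higher and 2295 lower. Dpp6, with 80 to 102 reads, has the widest interval of the members, and Dpp10 and the genes under the filter have no test in the values reported.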
